A study of Mus musculus with 6 samples.

Results

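The glucocorticoid receptor gene Nr3c1 and 9 classic glucocorticoid targets (Fkbp5, Tsc22d3, Zbtb16, Cebpb, Cebpd, Sgk1, Ddit4, Mt1 and Mt2) were followed in the mouse quadriceps, a thigh muscle. They were chosen by gene symbol, and all 10 were found among the 23314 rows of the deposited expression table. In K15SKO mice, with genotype Myogenin-Cre/+;K15F/F, the transcription factor gene Klf15 is floxed and Cre recombinase is driven by Myogenin. Their control was MyoCre, with genotype Myogenin-Cre/+, which carries the same Cre without the floxed alleles. Myogenin is switched on in differentiating muscle cells, so cells of other types in the tissue are not targeted by this Cre. All mice were 2 months old, and each group held 3 RNA sequencing libraries of total RNA, named here K15SKO 1 to 3 and MyoCre 1 to 3. The design text states n = 4, while the series lists 3 libraries per group, all of which were analysed here. Levels are in FPKM, fragments scaled to the length of the gene and to the sequencing depth.

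Glucocorticoids such as corticosterone bind the glucocorticoid receptor in the cytoplasm, where it is held by Hsp90 chaperones. The bound receptor enters the nucleus and switches target genes on or off. In skeletal muscle these hormones are known for driving protein breakdown and amino acid release, and Klf15 is itself a known glucocorticoid target there. No label records the hormone state of the mice.

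The targeted gene, Klf15, stood at 2.22, 21.7 and 5.32 FPKM in K15SKO 1 to 3 and at 35.2, 28.4 and 30.5 FPKM in MyoCre 1 to 3. K15SKO 2 thus kept 69.3% of the MyoCre mean, and K15SKO 3 kept 16.97%. All 7 skeletal muscle markers were among the expressed genes, with a summed level of 33045 to 56003 FPKM in K15SKO and 44242 to 51569 FPKM in MyoCre. In K15SKO 1, 5 of the 7 were below every MyoCre library and 2 above. In K15SKO 2, 6 were below and 1 above, and in K15SKO 3 all 7 were above. The part of this in the levels of the 10 genes was not tested. Markers of other cells also set the K15SKO libraries apart. All 7 macrophage markers exceeded every MyoCre library in K15SKO 1 and in K15SKO 2, and 0 of 7 did so in K15SKO 3. Of the 8 liver markers, 7, 8 and 7 exceeded every MyoCre library in K15SKO 1 to 3. They summed to 70.7, 5599 and 17.9 FPKM in K15SKO 1 to 3, against 27.8 to 69.0 FPKM in MyoCre, where Cyp2e1 alone gave 26.7 to 68.2 FPKM. Without Cyp2e1, left out after its values were seen, the other 7 summed to 65.8, 5273 and 11.5 FPKM in K15SKO 1 to 3, against 0.81 to 3.90 FPKM in MyoCre. All 6 adipocyte markers were lower in every K15SKO library, summing to 29.4 to 53.2 FPKM, against 171 to 479 FPKM in MyoCre. Over the tested genes, log2 levels of K15SKO 3 correlated at 0.968 to 0.975 with the MyoCre libraries, and at 0.942 and 0.880 with K15SKO 1 and 2. Differences of the 10 genes are given with and without K15SKO 3. That library was singled out after its likeness to MyoCre was seen, and leaving it out raised the genes passing the test below over the whole table to 2743, against 6 with all libraries. The p-values without it follow from that choice and are a description, not a separate test. In whole tissue, fewer cells of a type and less RNA per cell cannot be told apart.

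Across the 10 genes, none passed the test between genotypes with all 6 libraries. The receptor gene Nr3c1 was lower in 3 of 3 K15SKO libraries, at 47.3% to 61.4% of the MyoCre mean. The metallothionein gene Mt1 was above every MyoCre library in all 3, but barely in K15SKO 3, at 35.6 FPKM against a MyoCre maximum of 35.4 FPKM. The other 8 genes overlapped between the groups. With K15SKO 3 left out, Nr3c1 and Zbtb16 were lower and Mt1 and Mt2 were higher past the threshold, a result that rests on the choice of that library. The test was limma on log2(FPKM + 1), with p-values adjusted by Benjamini-Hochberg over 11607 genes with a mean of at least 1 FPKM, and a threshold of 0.05. All 10 genes passed that filter. Of all genes tested, 0.0517% passed, and 16.5% had an unadjusted p under 0.05. Of the 10 genes, 1 had such an unadjusted p, and it was lower in K15SKO, as were 8.12% of all genes, while 8.43% were higher. The median log2 difference of the 10 genes was 0.11, and that of all genes tested was -0.015. Groups did not overlap for 1 of the 10 genes in each direction, close to the 11.3% of all genes that were lower and the 13.4% that were higher without overlap (24.7% in either direction). Without K15SKO 3, 2 of 10 genes passed as lower and 2 as higher, against 12.8% and 10.8% of all genes (23.6% in either direction). Since no label ties each library to its own mouse, the p-values cover the spread among these libraries, which may be technical.

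**Figure D1:**
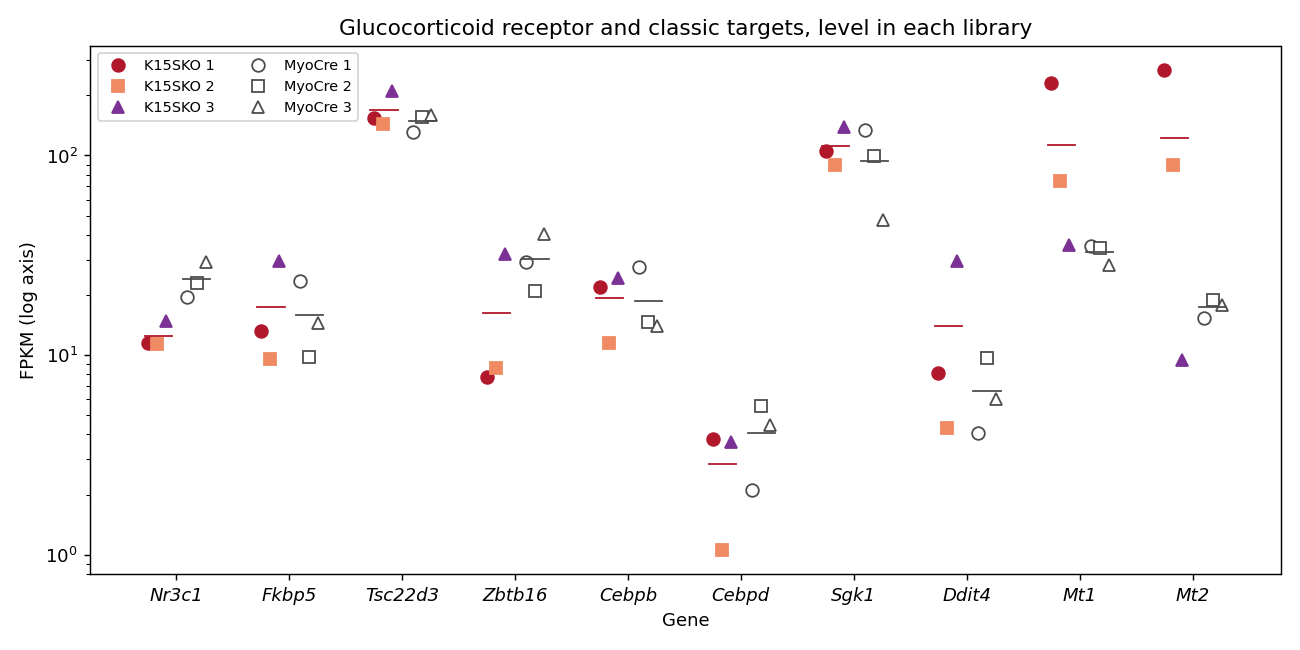
Level of each gene in each library, in FPKM on a log axis, with K15SKO libraries as filled symbols to the left and MyoCre libraries as open symbols to the right, and horizontal lines at the group means. Nr3c1 lies at 11.4 to 14.7 FPKM in K15SKO, below the 19.6 to 29.4 FPKM of MyoCre, and Mt1 and Mt2 spread widely among the K15SKO libraries.

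In MyoCre quadriceps the 10 genes spanned a wide range of levels. Tsc22d3 was highest, at 149 ± 15.3 FPKM, followed by Sgk1 at 93.7 ± 43.7 FPKM (SD, n = 3 each). A middle group ran from Mt1, at 32.6 ± 3.92 FPKM, through Zbtb16, Nr3c1, Cebpb and Mt2 to Fkbp5, at 15.9 ± 6.97 FPKM. Ddit4, at 6.59 ± 2.84 FPKM, and Cebpd, at 4.05 ± 1.78 FPKM, were lowest. Neighbours in this order overlapped in their ranges, except that the lowest Sgk1 value lay above the highest Mt1 value and the lowest Fkbp5 value just above the highest Ddit4 value. Tsc22d3 ranked 415th by mean level among all rows.

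Nr3c1 encodes the glucocorticoid receptor, a nuclear receptor and transcription factor. The gene lies on chromosome 18 from 39410545 to 39519421 on the minus strand (GENCODE M21, assembly GRCm38, equal to mm10). It stood at 11.5, 11.4 and 14.7 FPKM in K15SKO 1 to 3 and at 19.6, 23.0 and 29.4 FPKM in MyoCre 1 to 3. Every K15SKO library was below every MyoCre library, and the K15SKO values lay close together. The means were 12.5 ± 1.92 FPKM in K15SKO and 24.0 ± 4.98 FPKM in MyoCre (SD, n = 3 each). The log2 difference was -0.88 (SE 0.18, 95% confidence interval -1.30 to -0.45), with an unadjusted p of 0.00215 and a limma adjusted p of 0.248. By unadjusted p Nr3c1 ranked 95th of 11607 genes. An exact two-sided permutation test gave 0.1, the smallest p that 3 against 3 libraries allow. Without K15SKO 3 the log2 difference was -0.99 (limma adjusted p = 0.0209), and without K15SKO 2 it was -0.82 (limma adjusted p = 0.386). Adipocyte markers also moved this way in all 3 K15SKO libraries, and their part in the receptor's lower level was not tested. All 5 endothelial markers were below every MyoCre library in K15SKO 1 and in K15SKO 2, while 4 of 5 were above every MyoCre library in K15SKO 3, and their part was not tested either.

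The genes with the profile most like Nr3c1 over the 6 libraries, by Pearson correlation of log2(FPKM + 1), were Mast4, a kinase gene, Nhlrc1, which encodes the ubiquitin ligase malin, and Api5, an inhibitor of apoptosis. Their coefficients were 0.996, 0.996 and 0.996. With 6 points and 11607 genes such values describe these libraries only.

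Fkbp5 encodes FKBP51, an immunophilin that binds the receptor complex and lowers its affinity for hormone, and is itself induced by the receptor. The gene lies on chromosome 17 from 28399094 to 28517527 on the minus strand. It stood at 13.2, 9.53 and 29.7 FPKM in K15SKO 1 to 3 and at 23.5, 9.77 and 14.4 FPKM in MyoCre 1 to 3. K15SKO 3 was the highest library and K15SKO 2 the lowest, so the groups overlapped from end to end. The log2 difference was 0.058 (SE 0.46, 95% confidence interval -1.05 to 1.17, limma adjusted p = 0.948), an interval that leaves room for changes in either direction. It was -0.39 without K15SKO 3 and 0.39 without K15SKO 2. The ratio of Fkbp5 to Nr3c1 was 1.15, 0.839 and 2.02 in K15SKO 1 to 3 and 1.20, 0.426 and 0.491 in MyoCre 1 to 3. The genes most like Fkbp5 over the 6 libraries were Rpp21, an RNase P subunit gene, Mcrs1 and Grap, at coefficients of 0.982, 0.978 and 0.978.

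Among the transcriptional regulators, Tsc22d3 encodes GILZ, a leucine zipper protein that carries anti-inflammatory actions of glucocorticoids. It lies on chromosome X from 140539528 to 140600659 on the minus strand. Its levels were 153, 144 and 209 FPKM in K15SKO 1 to 3 and 131, 156 and 159 FPKM in MyoCre 1 to 3. K15SKO 3 stood above the other 5 libraries, and K15SKO 1 and 2 lay inside the MyoCre range. The log2 difference was 0.17 (SE 0.18, 95% confidence interval -0.26 to 0.60, limma adjusted p = 0.596). It was 0.0032 without K15SKO 3 (SE 0.11).

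Zbtb16 encodes PLZF, a zinc-finger repressor with a BTB domain that is strongly induced by glucocorticoids in several human cell types. It lies on chromosome 9 from 48654297 to 48836222 on the minus strand. It stood at 7.77, 8.64 and 32.2 FPKM in K15SKO 1 to 3 and at 29.2, 21.0 and 40.4 FPKM in MyoCre 1 to 3. K15SKO 1 and 2 were far below the MyoCre range, at 25.7% and 28.6% of its mean, while K15SKO 3 lay within it. With all libraries the log2 difference was -1.10 (SE 0.54, limma adjusted p = 0.334). Without K15SKO 3 it was -1.71 (SE 0.27, limma adjusted p = 0.0169), and without K15SKO 2 it was -0.82 (limma adjusted p = 0.546).

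Cebpb and Cebpd encode C/EBP-beta and C/EBP-delta, leucine zipper transcription factors that respond to glucocorticoids and to cytokines. Cebpb is a plus-strand gene of chromosome 2, from 167688915 to 167690418. It stood at 22.0, 11.5 and 24.4 FPKM in K15SKO 1 to 3 and at 27.5, 14.7 and 13.9 FPKM in MyoCre 1 to 3. The groups overlapped, and the log2 difference was 0.045 (SE 0.35, 95% confidence interval -0.81 to 0.90, limma adjusted p = 0.947). It was -0.15 without K15SKO 3 and 0.36 without K15SKO 2. Cebpb overlaps Tmem189 on the other strand, which was listed at 9.45 to 14.2 FPKM in K15SKO and 9.57 to 10.7 FPKM in MyoCre. Without a stated strand setting, reads of the pair may not be told apart.

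Cebpd is a plus-strand gene of chromosome 16, from 15887286 to 15891031, and overlaps Spidr on the minus strand, a gene under 1 FPKM in every library. Cebpd stood at 3.79, 1.05 and 3.67 FPKM in K15SKO 1 to 3 and at 2.10, 5.58 and 4.47 FPKM in MyoCre 1 to 3. K15SKO 2 was the lowest library, and the other 2 K15SKO values lay inside the MyoCre range. The log2 difference was -0.43 (SE 0.42, limma adjusted p = 0.564). It was -0.62 without K15SKO 3 and -0.025 without K15SKO 2. MyoCre 2 and 3, the libraries with the most Cebpd, were also those with the most Socs3, a cytokine response gene, at 37.5 and 64.6 FPKM against 1.41 FPKM in MyoCre 1. Socs3 stood at 3.39, 2.75 and 0.82 FPKM in K15SKO 1 to 3; it was named after its values were seen. Its part in the Cebpd values was not tested. The 6 acute inflammation markers, Socs3 included, summed to 2.41 to 8.08 FPKM in K15SKO and 1.82 to 65.2 FPKM in MyoCre. Without Socs3 the sum of the other 5 went the other way. It was 4.68, 2.51 and 1.58 FPKM in K15SKO 1 to 3 against 0.41 to 1.13 FPKM in MyoCre. Ccl2 alone gave 3.64 and 1.51 FPKM of it in K15SKO 1 and 2. Il6 had a lower mean in K15SKO, 0.17 against 0.25 FPKM. Of the 6 markers, 2 were higher in K15SKO without overlap between the groups and 0 lower, beside 13.4% and 11.3% of all genes tested.

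**Figure D2:**
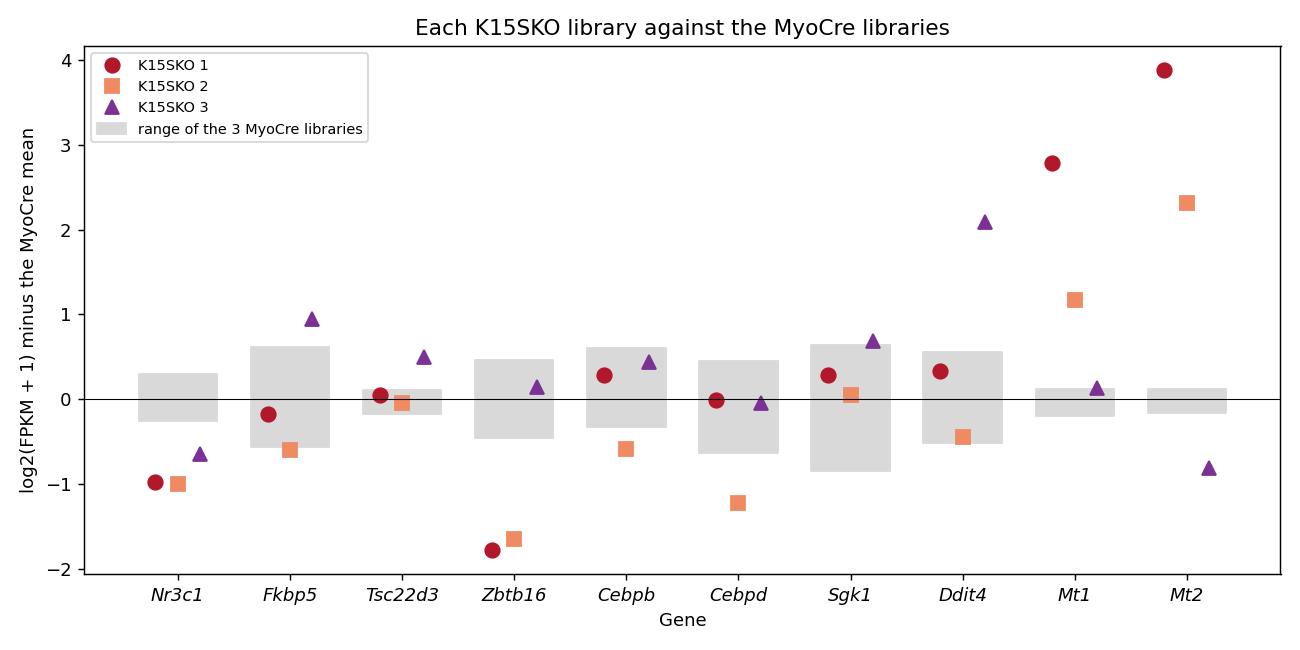
Level of each gene in K15SKO 1 to 3 as log2(FPKM + 1) minus the mean of the MyoCre libraries, with grey bands for the range of the 3 MyoCre libraries. Nr3c1 lies below its band in all 3 K15SKO libraries, Zbtb16 in K15SKO 1 and 2, and Ddit4 stands 2.09 above the mean in K15SKO 3 alone.

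Sgk1 and Ddit4 act in growth factor and nutrient signalling. Sgk1 encodes a kinase that is activated downstream of PI3-kinase and is induced by serum and glucocorticoids. It is a plus-strand gene of chromosome 10, from 21882184 to 21999903. It stood at 105, 89.1 and 139 FPKM in K15SKO 1 to 3 and at 134, 99.2 and 47.5 FPKM in MyoCre 1 to 3. MyoCre 3 was the lowest library and K15SKO 3 the highest, with the others in between. The log2 difference was 0.34 (SE 0.39, 95% confidence interval -0.59 to 1.28, limma adjusted p = 0.619). It was 0.17 without K15SKO 3 and 0.49 without K15SKO 2.

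Ddit4 encodes REDD1, an inhibitor of the mTORC1 growth pathway that glucocorticoids induce in muscle. It lies on chromosome 10 from 59949669 to 59951834 on the minus strand. It stood at 8.10, 4.29 and 29.8 FPKM in K15SKO 1 to 3 and at 4.07, 9.67 and 6.03 FPKM in MyoCre 1 to 3. K15SKO 3 was at 4.51 times the MyoCre mean, and the other 2 K15SKO libraries lay inside the MyoCre range. The log2 difference of 0.65 (SE 0.65, limma adjusted p = 0.567) was -0.062 without K15SKO 3 and 1.21 without K15SKO 2 (limma adjusted p = 0.916 and 0.456).

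Each K15SKO library was also set against the range of the MyoCre libraries, beside the share over all genes. In K15SKO 3, 5 of the 10 genes exceeded every MyoCre library (Fkbp5, Tsc22d3, Sgk1, Ddit4 and, barely, Mt1), as did 36.1% of all genes tested. In K15SKO 1 and 2 only Mt1 and Mt2 did so, against 37.2% and 33.4% of all genes. Below the MyoCre range were Nr3c1 and Zbtb16 in K15SKO 1, Nr3c1, Fkbp5, Zbtb16, Cebpb and Cebpd in K15SKO 2, and Nr3c1 and Mt2 in K15SKO 3. Those are 2, 5 and 2 of the 10 genes, against 43.2%, 43.8% and 25.3% of all genes below the MyoCre range in K15SKO 1 to 3.

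RefSeq promoter windows (GRCm38.p6, 250 bases before to 50 after a start site) were matched for 7 of the 10 genes, with 14 windows in all. They were searched on both strands for the palindromic glucocorticoid response element, AGAACA and TGTTCT with 3 bases of any kind between them. In all, 3 of 32851 windows in the whole table (0.00913%) held it, and 1 of them belonged to Sgk1, at chr10:21993640-21993939 on the plus strand. This window is shown because it carries the sole match among the genes, with the element in capitals.
Sgk1: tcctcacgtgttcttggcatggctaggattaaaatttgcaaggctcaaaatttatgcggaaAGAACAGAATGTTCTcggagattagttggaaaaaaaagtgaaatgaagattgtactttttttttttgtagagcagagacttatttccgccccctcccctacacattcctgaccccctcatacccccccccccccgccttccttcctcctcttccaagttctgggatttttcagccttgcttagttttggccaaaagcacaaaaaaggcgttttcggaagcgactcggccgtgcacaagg
The element begins at position -189 relative to the start site. Sgk1 has 6 windows in the table, and the other 5 held no match to these letters. The shorter AGAACA, which the palindrome contains on each strand, was found in 6233 of the 32851 windows, and in 3 further windows of the 10 genes apart from the printed Sgk1 window (2 of Sgk1 and 1 of Tsc22d3). The letters CCNCNCCC, a box bound by Klf and Sp factors, were found in 49.5% of all windows and, counted by gene, in 51.87% of genes. They were found in the windows of Fkbp5, Cebpb, Ddit4 and Mt2, in part of the windows of Tsc22d3 and Sgk1, and not in that of Mt1. A match describes letters in a window and is not a measured binding site.

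Mt1 and Mt2 encode metallothioneins, small cysteine-rich proteins that bind zinc and copper and are induced by metals as well as by glucocorticoids. They are neighbours on the plus strand of chromosome 8, Mt2 from 94172664 to 94173568 and Mt1 from 94179082 to 94180327, with 5513 bases between them. Mt1 stood at 230, 74.3 and 35.6 FPKM in K15SKO 1 to 3 and at 35.4, 34.4 and 28.2 FPKM in MyoCre 1 to 3. Mt2 stood at 268, 89.9 and 9.43 FPKM in K15SKO 1 to 3 and at 15.3, 18.8 and 17.9 FPKM in MyoCre 1 to 3. K15SKO 1 and 2 were far above the MyoCre libraries for both genes. In K15SKO 3, Mt1 was level with the highest MyoCre library and Mt2 was below all of them.

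In K15SKO 1 and 2, Mt1 was at 7.05 and 2.28 times the MyoCre mean, and Mt2 at 15.5 and 5.19 times. The MyoCre libraries were tight, with standard deviations of 3.92 FPKM for Mt1 and 1.84 FPKM for Mt2 (n = 3). With all libraries the log2 differences were 1.36 for Mt1 (SE 0.62, limma adjusted p = 0.317) and 1.80 for Mt2 (SE 1.09, limma adjusted p = 0.402). Without K15SKO 3 they were 1.98 (SE 0.47, limma adjusted p = 0.0385) and 3.10 (SE 0.45, limma adjusted p = 0.0150). Without K15SKO 1 they were 0.65 and 0.75 (limma adjusted p = 0.567 and 0.758), and without K15SKO 2 they were 1.46 and 1.54 (limma adjusted p = 0.464 and 0.599). The ratio of Mt1 to Mt2 was 0.858, 0.826 and 3.77 in K15SKO 1 to 3 and 2.32, 1.83 and 1.57 in MyoCre 1 to 3, so Mt2 exceeded Mt1 in K15SKO 1 and 2 alone. Their longest protein-coding transcripts matched at 401 of 490 aligned bases (81.8%), and the sources used here do not state how reads were shared between them. An antisense gene, Gm45774, overlaps Mt2 in GENCODE M21 and was not analysed here.

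The promoter windows of both genes are shown because each holds several copies of the core of the metal response element, the site of the zinc-sensing factor MTF-1. Capitals mark TGCACNC or TGCGCNC on either strand. The Mt1 window is chr8:94178839-94179138 and the Mt2 window chr8:94172368-94172667, both on the plus strand.
Mt1: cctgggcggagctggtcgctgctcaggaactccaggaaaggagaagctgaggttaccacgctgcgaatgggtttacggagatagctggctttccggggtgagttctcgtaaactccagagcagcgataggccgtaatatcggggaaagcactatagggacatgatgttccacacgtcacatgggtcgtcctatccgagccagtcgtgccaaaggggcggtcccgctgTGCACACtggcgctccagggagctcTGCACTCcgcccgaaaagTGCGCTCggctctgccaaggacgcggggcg
Mt2: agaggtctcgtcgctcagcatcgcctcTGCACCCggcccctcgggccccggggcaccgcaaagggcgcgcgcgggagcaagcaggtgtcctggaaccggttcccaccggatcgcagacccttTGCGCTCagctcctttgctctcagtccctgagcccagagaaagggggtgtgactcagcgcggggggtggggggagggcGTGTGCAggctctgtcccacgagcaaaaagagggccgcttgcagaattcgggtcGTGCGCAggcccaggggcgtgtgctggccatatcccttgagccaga
The core was matched 3 times in the Mt1 window and 4 times in the Mt2 window, without overlap. Of all 32851 windows, 25.7% held at least 1 match and 1.97% held 3 or more. Neither window held AGAACA.

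Across K15SKO 1 to 3, the sums of macrophage, regenerating muscle, fibroblast and acute inflammation markers fell in the same order as Mt1 and Mt2. The acute inflammation sum was 8.08, 5.27 and 2.41 FPKM in K15SKO 1 to 3, against 1.82 to 65.2 FPKM in MyoCre. The liver, adipocyte, endothelial and skeletal muscle sums did not. The 7 macrophage markers summed to 275, 158 and 29.3 FPKM in K15SKO 1 to 3 and to 30.9 to 37.3 FPKM in MyoCre, none of them at 0 in all libraries. The macrophage genes Cd68 and Csf1r stood at 43.8, 43.6 and 1.24 FPKM and at 8.67, 5.18 and 1.56 FPKM in K15SKO 1 to 3. In MyoCre 1 to 3, Cd68 stood at 0.90, 1.45 and 1.11 FPKM and Csf1r at 2.32, 1.77 and 1.52 FPKM. The 7 regenerating muscle markers, which include Myh3 and Myh8, the embryonic and perinatal myosins, summed to 83.3, 69.0 and 21.3 FPKM in K15SKO 1 to 3 and to 13.7 to 24.0 FPKM in MyoCre. Of these, 6 exceeded every MyoCre library in each K15SKO library, and without the other, Myod1, the sums were 71.3, 61.9 and 11.96 FPKM in K15SKO 1 to 3 against 6.30 to 7.16 FPKM in MyoCre. The 5 fibroblast markers summed to 270, 202 and 149 FPKM in K15SKO 1 to 3 and to 164 to 187 FPKM in MyoCre. Of these, 3 exceeded every MyoCre library in K15SKO 1 and in K15SKO 2, while 2 were below every MyoCre library in all K15SKO libraries. The part of these cells and of inflammation in the metallothionein levels was not tested. The liver gene Alb stood at 21.1, 2203 and 4.36 FPKM in K15SKO 1 to 3 and at 1.13, 0.30 and 0.31 FPKM in MyoCre 1 to 3. The part of liver transcripts in the Mt1 and Mt2 levels was not tested.

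**Figure D3:**
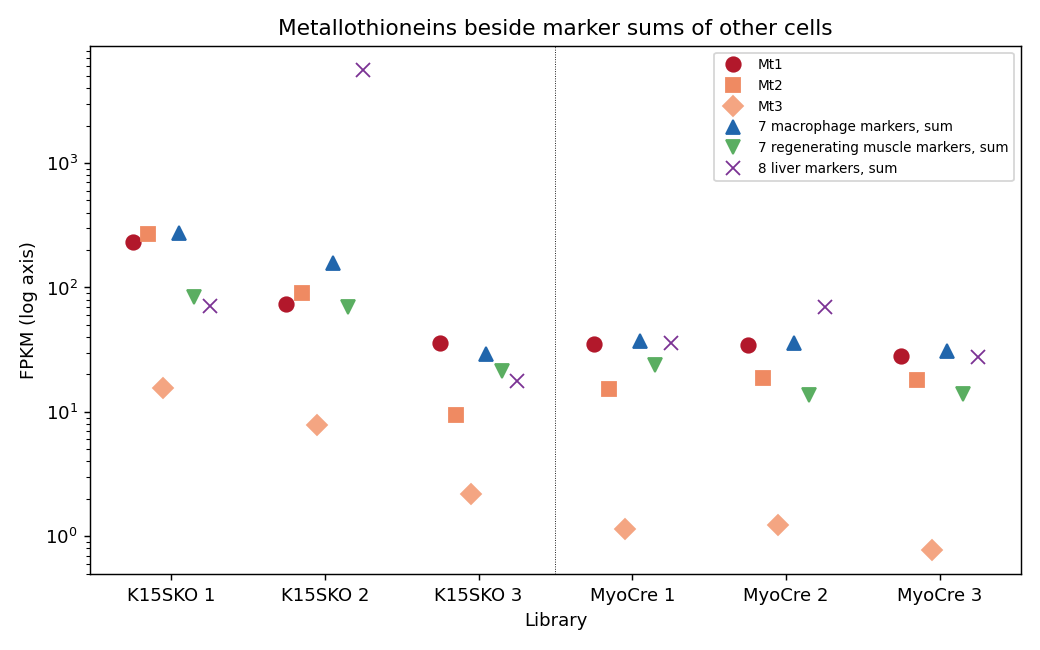
Mt1, Mt2 and Mt3 levels and summed levels of macrophage, regenerating muscle and liver markers in each library, in FPKM on a log axis. Mt1, Mt2 and the macrophage sum are highest in K15SKO 1, next in K15SKO 2 and near or below the MyoCre levels in K15SKO 3. Cyp2e1 makes up most of the liver sum in MyoCre.

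The genes most like Mt1 over the 6 libraries were Rab7b, a small GTPase gene of lysosomal traffic, Sdhaf1, an assembly factor of succinate dehydrogenase, and Ostc, a subunit of the oligosaccharyltransferase, at coefficients of 0.998, 0.997 and 0.997.

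The genes around the receptor were counted in lists that give its chaperones, cofactors, hormone supply, other targets and the partners of its targets. No member of any list passed the test with all 6 libraries. Of the 19 tested of 20 other glucocorticoid-responsive genes, 8 had an unadjusted p under 0.05 and were lower in K15SKO, and 2 were higher, with a median log2 difference of -0.45, against -0.015 for all genes tested, of which 942 were lower and 978 higher at that p. Klf15, the deleted gene, is on this list. Per1, a clock gene, stood at 15.4, 16.4 and 24.3 FPKM in K15SKO 1 to 3 and at 15.9, 10.5 and 6.30 FPKM in MyoCre 1 to 3. Dusp1, a phosphatase that turns off MAP kinases, stood at 34.6, 37.1 and 72.4 FPKM in K15SKO and at 44.7, 9.56 and 13.4 FPKM in MyoCre. Both overlapped between the groups, at limma adjusted p of 0.303 and 0.315.

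Of the 19 tested other glucocorticoid-responsive genes, 6 were lower and 2 higher in K15SKO without overlap between the groups. The shares of all genes tested were 11.3% and 13.4%. Klf9 and the deleted gene Klf15 were among the 6, and Errfi1 was among the 2. Klf9, a Krüppel-like factor, stood at 29.6, 36.2 and 61.8 FPKM in K15SKO 1 to 3 and at 81.9, 62.2 and 70.6 FPKM in MyoCre 1 to 3 (log2 difference -0.80, SE 0.28, limma adjusted p = 0.279). Errfi1, which restrains EGF receptor signalling, stood at 14.1, 49.7 and 10.8 FPKM in K15SKO and at 6.88, 7.45 and 6.60 FPKM in MyoCre (log2 difference 1.38, SE 0.52, limma adjusted p = 0.288). Without K15SKO 3, 8 members of this list passed as lower and 1 as higher, of 19 tested, beside 12.8% and 10.8% of all genes. The 8 were Klf9, Foxo1, Foxo3, Pdk4, Fbxo32, Mstn, Irs2 and Lpin1, and the higher 1 was Cdkn1a, a cell cycle inhibitor. Among them Fbxo32 and Mstn, which encode the muscle ubiquitin ligase atrogin-1 and myostatin, had log2 differences of -1.66 and -1.28 in that fit. Trim63, another muscle ubiquitin ligase gene of the list, had -0.076 there (limma adjusted p = 0.799) and 0.14 with all libraries. Apart from Klf9, these genes were named after their values were seen.

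Of the 12 chaperones and immunophilins of the receptor complex, 9 had a log2 difference above 0, as had 5576 of the 11607 genes tested, and their median was 0.15. An unadjusted p under 0.05 was reached by 2 of them, both higher in K15SKO, beside 8.43% of all genes. Hsp90ab1, the constitutive Hsp90, stood at 626, 692 and 554 FPKM in K15SKO 1 to 3 and at 443, 398 and 557 FPKM in MyoCre 1 to 3 (limma adjusted p = 0.294). Hsp90aa1, the inducible form, stood at 13.5, 9.33 and 10.7 FPKM in K15SKO and at 7.54, 7.05 and 14.2 FPKM in MyoCre. The log2 differences of the heat shock genes Hspa8 and Dnaja1 were -0.091 and -0.19. No chaperone passed without K15SKO 3 either, where the lowest limma adjusted p was 0.0727.

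Of the 12 coactivators and corepressors, 10 had a log2 difference below 0, as had 6031 of the 11607 genes tested, and their median was -0.31. An unadjusted p under 0.05 was reached by 5 of them, all lower in K15SKO, beside 8.12% of all genes. Ep300, a histone acetyltransferase, stood at 3.83, 3.84 and 6.95 FPKM in K15SKO 1 to 3 and at 7.19, 7.58 and 8.77 FPKM in MyoCre 1 to 3 (log2 difference -0.63, SE 0.21, limma adjusted p = 0.279). Ncoa2, the p160 coactivator also called GRIP1, stood at 2.65, 3.66 and 4.80 FPKM in K15SKO and at 4.90, 5.78 and 6.04 FPKM in MyoCre. Its relatives Ncoa1 and Ncoa3 had log2 differences of -0.39 and -0.29. Without K15SKO 3, 7 of the 12 passed as lower and 0 as higher, beside 12.8% and 10.8% of all genes.

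Of 9 genes of steroid supply and related receptors, 6 passed the filter, and Pgr was not analysed here. Hsd11b1, the enzyme that regenerates active glucocorticoid inside cells, stood at 3.12, 28.1 and 4.43 FPKM in K15SKO 1 to 3 and at 6.13, 10.9 and 4.48 FPKM in MyoCre 1 to 3. Serpina6, the plasma carrier of corticosteroids, was at 11.1 FPKM in K15SKO 2 and under 0.1 FPKM in each of the other libraries. Both were highest in K15SKO 2, the library with the most liver transcripts, and the part of these was not tested. H6pd, which supplies the cofactor of Hsd11b1, stood at 13.7, 21.6 and 19.2 FPKM in K15SKO and at 23.3, 24.8 and 27.6 FPKM in MyoCre (limma adjusted p = 0.288). Nr3c2, the mineralocorticoid receptor, which also binds glucocorticoids, stood at 2.51 to 2.65 FPKM in K15SKO and at 1.83 to 2.93 FPKM in MyoCre. Its log2 difference was 0.062 (SE 0.15), beside -0.88 for Nr3c1.

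Of 12 relatives of the target genes, 9 passed the filter. Of these, 2 were lower and 1 was higher at an unadjusted p under 0.05, beside 8.12% and 8.43% of all genes. Without K15SKO 3, 3 of the 9 passed as lower (Cebpg, Tsc22d2 and Ddit4l) and 1 as higher (Mt3), beside 12.8% and 10.8% of all genes. Cebpa, Cebpg and Ddit3 of the C/EBP family had log2 differences of -0.052, -0.29 and -0.075, and Tsc22d1, a relative of Tsc22d3, had 0.28. Tsc22d2, another, stood at 3.73, 5.16 and 5.65 FPKM in K15SKO 1 to 3 and at 7.17, 7.96 and 8.06 FPKM in MyoCre 1 to 3. Its log2 difference was -0.59 (SE 0.15, limma adjusted p = 0.266), and -0.69 without K15SKO 3 (limma adjusted p = 0.0268). Tsc22d2, Mt3 and Ddit4l were named after their values were seen. Mt3, a metallothionein best known in brain, stood at 15.6, 7.90 and 2.21 FPKM in K15SKO 1 to 3 and at 1.14, 1.22 and 0.77 FPKM in MyoCre 1 to 3, above MyoCre in every K15SKO library (log2 difference 1.94, SE 0.56, limma adjusted p = 0.272). Without K15SKO 3 its limma adjusted p was 0.00894. Ddit4l, which encodes REDD2, the muscle relative of REDD1, stood at 96.0, 93.1 and 86.5 FPKM in K15SKO and at 142, 176 and 188 FPKM in MyoCre. Its log2 difference was -0.86 (SE 0.14, limma adjusted p = 0.228), and -0.82 without K15SKO 3 (limma adjusted p = 0.0192).

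Partners of the metallothioneins in metal and oxidative stress handling had 0 of 9 tested members with an unadjusted p under 0.05. Of all genes tested, 16.5% had such a p. Mtf1, the zinc-sensing activator of metallothionein genes, stood at 2.85, 2.85 and 4.07 FPKM in K15SKO 1 to 3 and at 3.66, 4.10 and 4.73 FPKM in MyoCre 1 to 3. Slc30a1, a zinc exporter and another Mtf1 target, stood at 2.33, 3.45 and 3.29 FPKM in K15SKO and at 2.95, 2.98 and 2.47 FPKM in MyoCre (log2 difference 0.075, SE 0.15). The zinc importers Slc39a14 and Slc39a10 had log2 differences of 0.23 and -0.11. Without K15SKO 3, 1 of the 9 passed as lower and 0 as higher, beside 12.8% and 10.8% of all genes. The lower 1 was Txnrd1, a thioredoxin reductase, at -0.85 (limma adjusted p = 0.0222). Effectors downstream of Ddit4 and Sgk1 had 0 of 11 members with an unadjusted p under 0.05, beside the same 16.5% of all genes. The mTORC1 genes Tsc1, Tsc2, Rheb and Mtor had log2 differences of -0.22, -0.11, 0.12 and -0.081. Without K15SKO 3, 2 of the 11 passed as lower and 0 as higher, again beside 12.8% and 10.8% of all genes. The lower 2 were Ndrg1 at -0.66 and Foxo4 at -1.03 (limma adjusted p = 0.0185 and 0.0169). Txnrd1, Ndrg1 and Foxo4 were named after their values were seen.

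**Figure D4:**
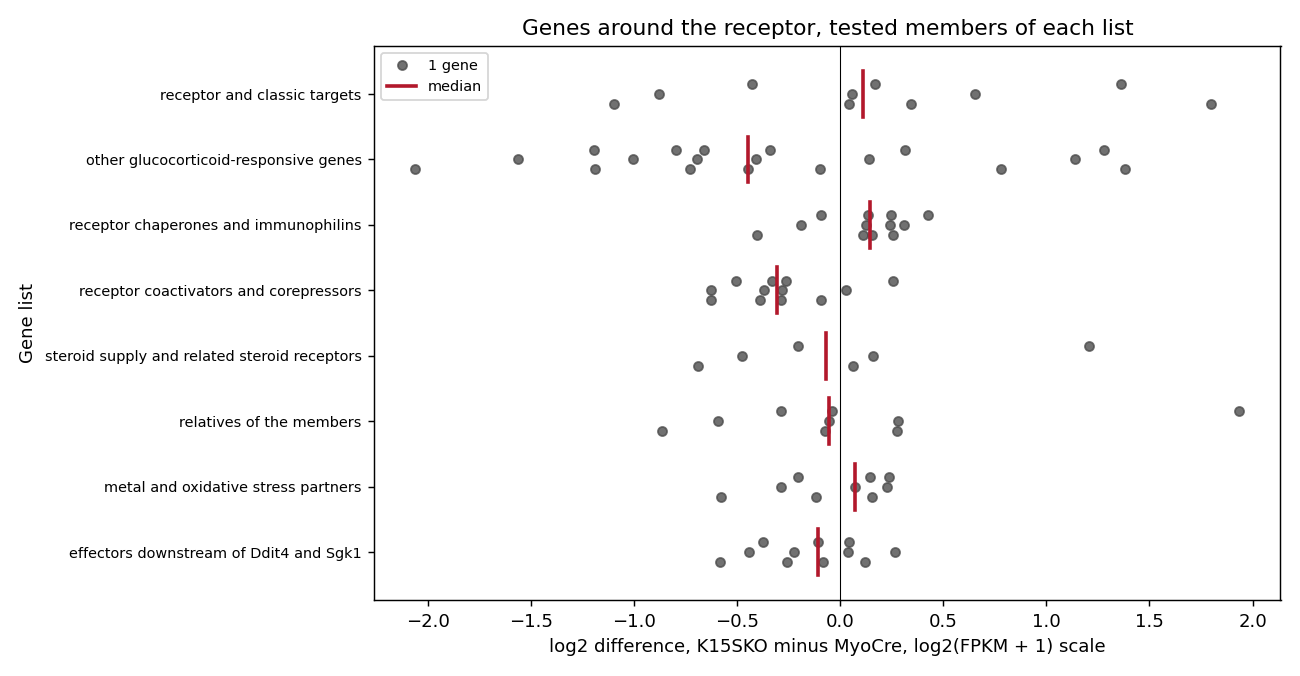
Log2 difference, K15SKO minus MyoCre on the log2(FPKM + 1) scale, of each tested gene (points) and the median (red bars) of each list. The median is -0.45 for other glucocorticoid-responsive genes, -0.31 for coactivators and corepressors and 0.15 for chaperones, and 0.11 for the receptor and its classic targets.

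**Figure D5:**
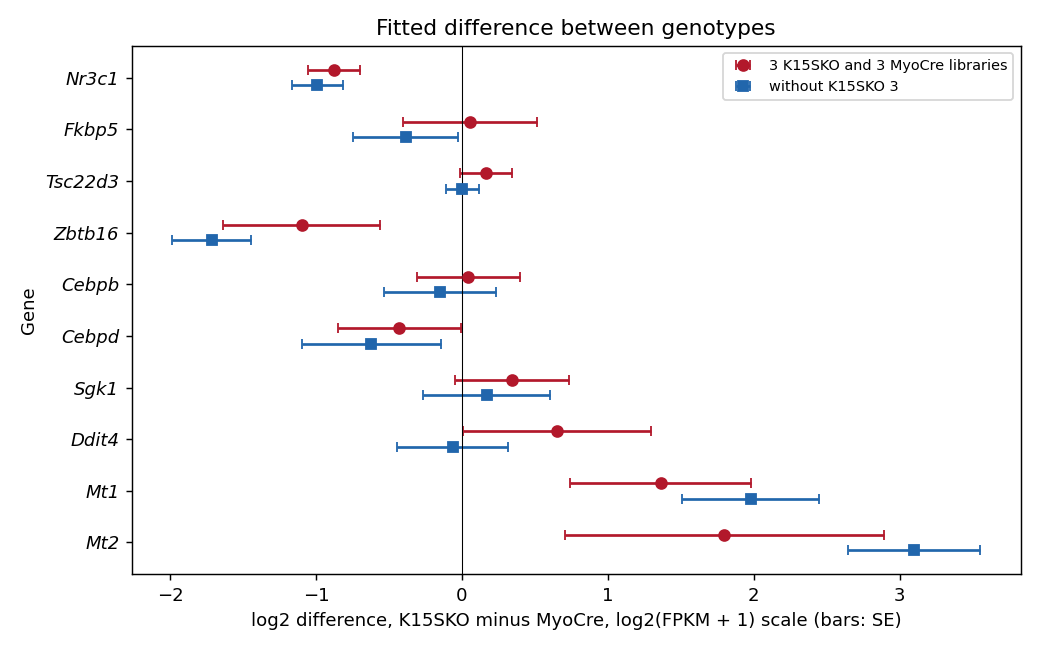
Fitted log2 difference, K15SKO minus MyoCre on the log2(FPKM + 1) scale, of each of the 10 genes with all libraries (circles) and without K15SKO 3 (squares), with bars for the SE. Nr3c1 differs little between the fits (-0.88 and -0.99), while Ddit4 moves between 0.65 and -0.062 and Mt2 between 1.80 and 3.10.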

How the data were processed

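Total RNA of quadriceps from 6 libraries was sequenced. Roche HighPure columns and Illumina library chemistry were used, per the labels' protocols. The submitters' processing notes name the tools STAR, Cufflinks and Cuffdiff and the mm10 build; the sources used here give no version, annotation or strand setting. Levels were deposited by the authors as FPKM, a unit inferred from the named tools and the range of the values. Columns were matched to samples by their descriptions, and 0 columns belonged to no sample.

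FPKM keeps no counts. Steps between values under 0.1 FPKM gave depths of 0.78 to 1.57 relative to MyoCre 1, and absolute depth is unknown. The fit used limma 3.58.1 in R 4.3.3 (lmFit, eBayes with trend) on log2(FPKM + 1), two-sided, which understates changes of low genes. Genes with a mean of at least 1 FPKM (11607) were tested. The fit was tested on simulated data.

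The members and lists were chosen with earlier results of these data known. The rule for named genes gave all 10 members, the first 4 tested genes of each pathway list in written order, the first 2 markers of each cell type (values are given where they stand beside a result), Klf15, and for Nr3c1, Fkbp5 and Mt1 the 3 genes with the most similar profile, leaving out names of predicted or small RNA genes. Gene positions came from GENCODE M21, where all 10 IDs matched, 4 with the same version. Alternatives were other pseudocounts (0.1 and 0.5), filters, scalings, variance priors, weighting of libraries (array weights), a block for replicate number, and leaving out every library in turn. A fit without genes listed at 0 in a whole group was added after seeing the data. Python 3.11.15, pandas 2.3.3, biopython 1.88 and matplotlib 3.10.9 were used.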

Additional observations from a re-analysis of the deposited data

How the results depend on the processing

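With all 6 libraries the counts that passed were 6 genes of all tested, 0 of the 10 genes and 0 members of the other lists. Array weights gave 2398, 4 and 24, the 4 being Nr3c1, Zbtb16, Mt1 and Mt2 (limma adjusted p of 0.0251, 0.0312, 0.0435 and 0.0308), the same genes as without K15SKO 3. With each library left out in turn the counts ran from 3 (without MyoCre 1 or MyoCre 2) to 2743, 0 to 4 and 0 to 24, with the high end without K15SKO 3. Over all genes, 3 passed with no filter and 3 with the replicate block, and limma called 0 without genes listed at 0 in a whole group, where 1930 had an unadjusted p under 0.05. Same-numbered libraries deviated from their group means together at correlations of 0.00240, 0.0851 and 0.0942, so the replicate number was not taken as a pairing, and with the block 0 of the 10 genes passed.

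Nr3c1, Tsc22d3, Zbtb16, Cebpd, Mt1 and Mt2 kept their sign under every alternative that gave a value, and Nr3c1 had an unadjusted p under 0.05 in 17 of 17. Its log2 difference ran from -1.01 to -0.73 and its limma adjusted p from 0.0209 to 0.581. Cebpd was not tested at a mean of at least 5 FPKM. Array weights turned Cebpb to -0.39, Fkbp5 to -0.44 and Sgk1 to -0.014. With 1 library left out, Cebpb ran from -0.15 (without K15SKO 3) to 0.36 and was also below 0 without K15SKO 1, MyoCre 2 or MyoCre 3. Fkbp5 ran from -0.39 (without K15SKO 3) to 0.39 and was -0.23 without MyoCre 2. Ddit4 ran from -0.062 (without K15SKO 3) to 1.21, and Sgk1 from -0.079 (without MyoCre 3) to 0.66. The cause was not tested. Absolute depth is unknown, so counting error could not be set beside the spread, and Cebpd, at 1.05 to 5.58 FPKM, is the gene whose values rest on the lowest level.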
